A study of Mus musculus with 24 samples.

Results

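The subject is a list of 35 mouse genes that work in germ cells or in meiosis, matched by symbol to Ensembl gene IDs, out of 47069 gene IDs counted in the hippocampus of Kdm5c mutant mice. They fall into 7 roles: entry into meiosis and germ cell fate (4 genes), cohesin and chromosome axis (4), synaptonemal complex (5), recombination (4), the piRNA pathway and transposon silencing (9), germline copies of genes with a somatic partner (6), and germ cell surface and oocyte genes (3). The question was which of them stay without counts in adult hippocampus, and which gain counts when Kdm5c is missing or after exploration of an unfamiliar place.

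In meiosis, cohesin and axis proteins order each chromosome, the SPO11 enzyme cuts its DNA, recombinases repair the cuts on the homologous chromosome, and the synaptonemal complex holds both homologues together. In the male germline, PIWI proteins loaded with small piRNAs silence transposons with the help of Tudor domain proteins. Most of these genes are kept off in the body's other tissues, by DNA methylation of CpG-rich promoters and by a repressor complex that holds the DNA-binding proteins E2F6, MGA and MAX. KDM5C is an X-linked enzyme that removes methyl groups from lysine 4 of histone H3, a mark of active promoters.

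Hippocampal RNA came from males of 2 to 4 months in 18 libraries, 3 for each of 6 groups, and each library pooled 3 mice. Wild-type mice and mice lacking Kdm5c in all cells (labelled Kdm5c -/-, KO), both on a mixed C57/129 F1 background, were taken untreated or after 1 h in a box with tubing and toys (novelty). The inducible knockout (ifKO) carried floxed Kdm5c (Kdm5c f/f) and CaMKIIα-creERT2, a tamoxifen-dependent Cre recombinase driven in excitatory neurons of the forebrain. It was compared with control mice, both without novelty and on a pure C57BL/6J background. Cells other than those neurons keep Kdm5c in ifKO mice, and the sources used here do not say if the controls had Cre or tamoxifen. The labels give hippocampal tissue, although the extraction text speaks of cultures. No source says that same-numbered libraries share a batch or a litter, and p-values measure the spread between pools, not between mice.

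The KO and wild-type libraries (single reads of 50 nt, 1 flowcell) held 16 to 45.6 M counts in genes, and the libraries of the inducible line (paired reads of 75 nt, the other flowcell) 36.3 to 44 M. Summed over 3 libraries, a group held 61.3 M counts in untreated wild type, 97.1 M in untreated KO, 80.3 M in wild type and 58.8 M in KO after novelty, 120 M in the controls of the inducible line and 118 M in ifKO. A count of 0 over a whole group therefore allows a level of up to 0.0309 CPM in untreated KO and 0.051 CPM in KO after novelty (CPM, counts per M counts in genes, per library with TMM scaling; 3 counts of the total, counting error only). Kdm5c itself was read at 62 to 100 CPM in all 18 libraries, and a count over the whole gene does not check the deletion of some of its exons. Neuron markers were abundant in every library, with Snap25 at 1370 to 2190 CPM and Camk2a at 3720 to 5820 CPM. Libraries that stand apart are KO untreated 2, with a summed choroid plexus marker level of 660 CPM against 41.2 to 87.9 CPM in the other 11 libraries of that line, 1 control of the inducible line with 425 CPM, and wild-type novelty 1 and KO novelty 2, which earlier work on these data had set apart and which were left out together in 1 alternative. Fewer cells of a type and less RNA per cell cannot be told apart in such bulk samples.

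Of the 35 genes, 11 were silent, with at most 3 counts in any group, and a few of the others had more counts in KO. Fkbp6, a partner of HSP90 needed for homologue pairing in males, had 62 counts in the 6 KO libraries and 6 in the 6 wild-type libraries. Asz1, a mitochondrial protein of the piRNA pathway, had 30 against 1, and Zar1, an RNA-binding protein of the oocyte, 54 against 4. Smaller excesses in KO were seen for Syce1, Sycp2, Tex15 and Rec8. In ifKO none of these exceeded its controls beyond the spread of the libraries.

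The 11 silent genes (Stra8, Zfp42, Hormad1, Sycp1, Meiob, Tuba3b, Ldhc, Rpl10l, Pdha2, Tex101 and Dpep3) held 29 counts in all 18 libraries together. They make up 31.4% of the list. By the same rule 22.4% of all protein-coding genes and 49% of all gene IDs were silent, so the listed genes were silent more often than coding genes at large and less often than all IDs, as a description without a test. Most of the list was thus read at a low level in adult hippocampus, in wild type as well.

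The filter on low counts let 12 of the 35 genes into the test of KO against wild type and 13 into that of ifKO, with 10 in both and 20 in neither. A gene can pass this filter through the counts of 1 group alone, so the genes that passed are not a sample of the list. Tdrd9 did so, with 5 KO libraries and 0 wild-type libraries at the filter's level. It could thus enter the KO counts and medians below only as higher. In edgeR's quasi-likelihood test with Benjamini-Hochberg adjustment, 0 of the 12 passed an adjusted p of 0.05 in untreated KO, where 1.24% of all 16392 tested genes passed, 0 in KO after novelty (1.34% of all), and 0 for the mean of both treatments (2.81% of all). At an unadjusted p under 0.05, 3 of the 12 were higher in untreated KO (5.01% of all tested genes), 7 after novelty (5.99%) and 6 for the mean (7.39%). None was lower at that level, against 3.64%, 2.74% and 4.5% of all. The median log2 fold change of the 12 was 0.15 at rest, 0.75 after novelty and 0.49 for the mean, and 0.00 over all tested genes. DESeq2 called 0, 1 and 5 of the genes it tested in these comparisons (1.34%, 1.62% and 2.77% of all). Without the low-count filter, when 30 of the 35 could be tested, 2 passed as higher in untreated KO (Asz1 and Zar1; 0.93% of all), 4 after novelty (Rec8, Fkbp6, Sycp2 and Zar1; 1.01%) and 7 for the mean (those and Tex15, Syce1 and Asz1; 1.83%), with none lower. The comparisons at rest and after novelty rest on different libraries, and the mean reuses both.

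**Figure D1:**
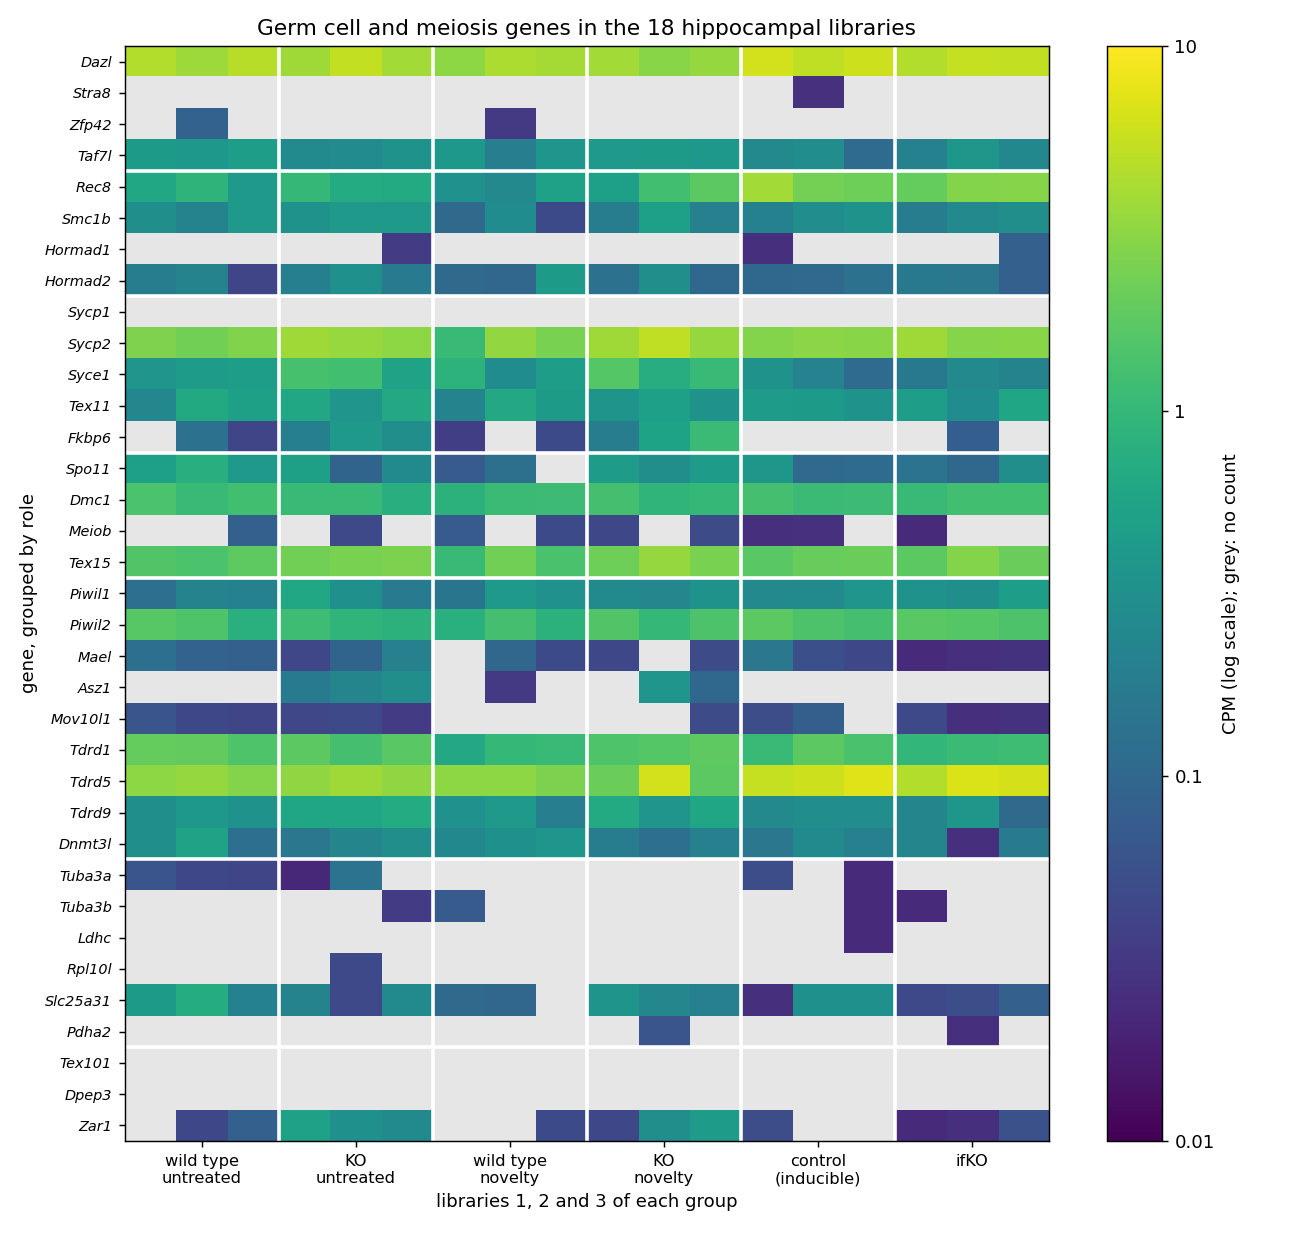
Level of each of the 35 genes (rows, grouped by role between white lines) in each library (columns, 3 per group), in CPM on a log colour scale, with grey for no count. Rows such as Sycp1, Tex101 and Dpep3 are grey throughout, while Fkbp6, Asz1 and Zar1 are coloured mainly in the KO columns.

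The promoters of the genes at either end of this range are shown first. RefSeq (GRCm38.p6) gave a promoter window, 250 bases before to 50 after the start of transcription, for 30 of the 35 genes. Below are the 250 bases before the start, 5′ to 3′ on the gene's strand, for Fkbp6 and Asz1, which went from nearly no count in wild type to more in KO, and for Sycp1 and Hormad1, which were silent. All 4 are rich in CpG, with observed over expected ratios of 0.93 (Fkbp6), 0.78 (Asz1), 0.87 (Sycp1) and 0.71 (Hormad1). These hold for the whole windows of the stretches printed. The other window of Fkbp6, not printed, had 0.99, and Zar1 had 0.67. Capitals mark the E-box CACGTG, the site of MAX with its partners and the same on both strands, and the core of the E2F site, TCCCGC on either strand (GCGGGA when read on the other).
Fkbp6, chr5:135350045-135350294, - strand: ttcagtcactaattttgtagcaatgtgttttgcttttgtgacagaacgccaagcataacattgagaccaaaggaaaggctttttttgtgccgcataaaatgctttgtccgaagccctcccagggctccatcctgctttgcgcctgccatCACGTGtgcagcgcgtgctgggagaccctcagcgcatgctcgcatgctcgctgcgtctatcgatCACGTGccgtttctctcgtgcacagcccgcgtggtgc
Asz1, chr6:18109062-18109311, - strand: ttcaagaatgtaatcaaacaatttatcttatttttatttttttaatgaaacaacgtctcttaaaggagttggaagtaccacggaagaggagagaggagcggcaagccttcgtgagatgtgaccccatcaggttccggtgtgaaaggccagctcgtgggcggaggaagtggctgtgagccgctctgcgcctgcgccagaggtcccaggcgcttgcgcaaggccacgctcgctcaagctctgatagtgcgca
Sycp1, chr3:102936101-102936350, - strand: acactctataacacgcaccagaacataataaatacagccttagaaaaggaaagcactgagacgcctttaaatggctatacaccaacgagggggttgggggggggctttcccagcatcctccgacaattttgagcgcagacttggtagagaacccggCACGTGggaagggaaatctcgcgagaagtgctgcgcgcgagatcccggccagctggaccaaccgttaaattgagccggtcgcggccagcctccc
Hormad1, chr3:95559427-95559676, + strand: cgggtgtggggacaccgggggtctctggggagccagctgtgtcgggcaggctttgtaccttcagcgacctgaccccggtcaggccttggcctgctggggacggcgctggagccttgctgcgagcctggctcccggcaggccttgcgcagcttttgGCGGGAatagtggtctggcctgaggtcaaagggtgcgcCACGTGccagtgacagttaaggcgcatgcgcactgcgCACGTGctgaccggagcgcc

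Fkbp6 holds an E-box pair that begins 101 and 37 bases before its start, and RefSeq's other start for the gene lies downstream and sees the same pair. Hormad1 has E-boxes at 57 and 20 bases before its start and an E2F core at 95, and Sycp1 has 1 E-box at 94. In Asz1 neither set of letters occurs in the window. Sycp1 also has an E2F core at base 2 after its start, outside the stretch printed, and Zar1, not printed, has 1 at base 14. An E-box is thus held by Fkbp6, with more counts in KO, and by the silent Hormad1 and Sycp1, while Asz1, with more counts in KO, has no match in this window. A match is a description of letters and does not show a bound site.

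Over the list, the E-box was found in 11 of the 30 genes with a window, against 8.09% of the 27025 genes in the RefSeq table, and the E2F core in 12 of 30 against 22%. The cyclic AMP response element TGACGTCA, common in genes of late sperm cells, was found in 0 of 30, against 2.03%. No match overlapped another. A CpG content of at least 0.6 of that expected from base composition was reached by 19 of 30 genes, against 38.4% of all genes. By level, 6 of the 10 silent genes with a window, 6 of the 9 low ones, 2 of the 3 tested in the inducible line only and 5 of the 8 tested in KO reached it, and E-boxes were in 2, 5, 2 and 2 of them. Differences between these counts were not tested.

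**Figure D2:**
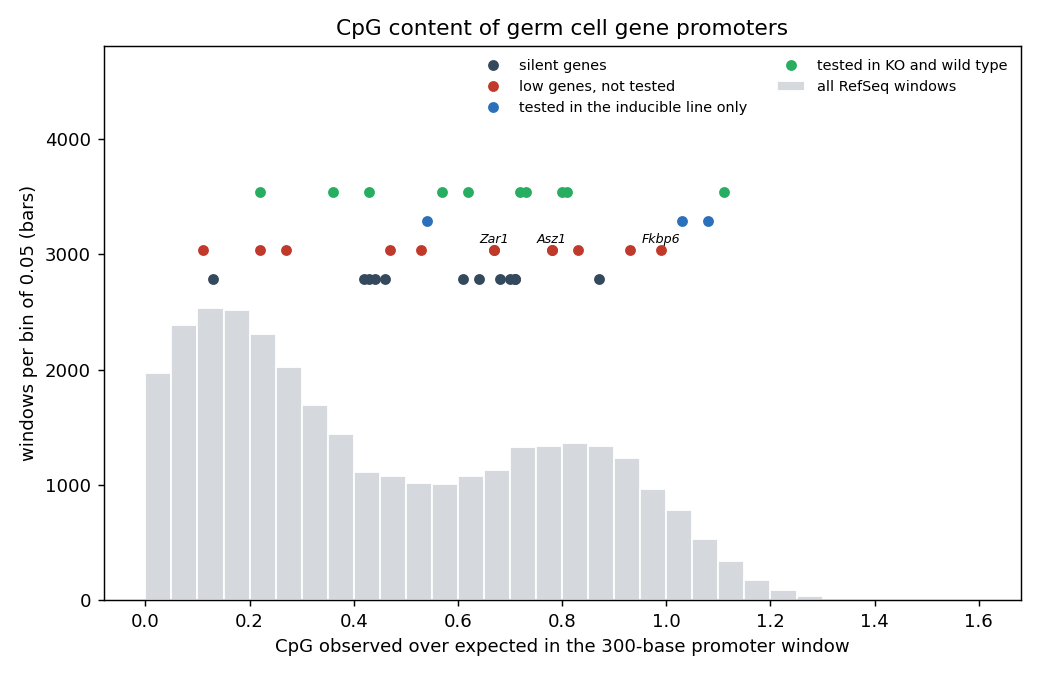
CpG content (observed over expected) of the 300-base promoter windows: grey bars count all RefSeq windows per bin of 0.05, and points above them are windows of the listed genes in 4 classes by level, at heights with no meaning. Fkbp6 has 2 windows, the higher of them labelled, and silent genes lie among the others.

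Of the 4 genes for entry into meiosis and germ cell fate, Dazl, an RNA-binding protein that licenses germ cells for meiosis, was the most abundant gene of the list per length of its exons, at 1.12 ± 0.156 CPM per kb (SD, n = 3) in untreated wild type. At rest, wild type stood at 4.56, 3.6 and 4.70 CPM and KO at 3.69, 5.27 and 3.79 CPM (log2 fold change -0.03 ± 0.18 SE, adjusted p = 0.978). After novelty the libraries gave 3.13, 4.29 and 3.93 CPM, against 3.87, 2.95 and 3.31 CPM in KO (-0.16 ± 0.19, adjusted p = 0.947). Both pairs of groups overlapped, and Dazl was read alike in either genotype. Stra8, the retinoic acid target that starts meiosis, had 1 count in all 18 libraries, and Zfp42 (Rex1), a pluripotency and germ cell factor, 3. Taf7l, an X-linked relative of the general transcription factor subunit TAF7, stood between 0.113 and 0.462 CPM in all 18 libraries. In untreated mice it had 7, 9 and 11 counts (0.431, 0.400 and 0.462 CPM) in wild type against 12, 6 and 10 (0.262, 0.277 and 0.338 CPM) in the deeper KO libraries. So the KO libraries lay below wild type at rest, but after novelty above it, at 0.405, 0.430 and 0.401 CPM against 0.400, 0.194 and 0.379 CPM, where the nearest libraries of both groups (0.401 and 0.400 CPM) are all but level. These are rates from about 10 counts a library, and the gene did not pass the filter of the KO test.

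Among the genes of cohesin and the chromosome axis, Rec8, the meiotic cohesin subunit (chromosome 14, 55618037 to 55625395, GRCm38), stood at rest at 0.616, 0.889 and 0.420 CPM without the mutation and at 0.983, 0.693 and 0.676 CPM in KO, which overlap (0.33 ± 0.43, adjusted p = 0.888). Novelty libraries of wild type gave 0.327, 0.258 and 0.521 CPM, those of KO 0.495, 1.23 and 1.75 CPM. The lowest KO library lay below the highest wild-type library, and the log2 fold change of 1.67 ± 0.46 gave an adjusted p of 0.127, or 0.0122 without the low-count filter. That call rested on KO novelty 3, without which the adjusted p was 0.274, and DESeq2 gave 0.0668. Over both treatments the difference was 1.00 ± 0.31 (adjusted p = 0.144). Its adjusted p of 0.0271 without the filter passed above 0.05 when wild-type untreated 3, KO untreated 1 or KO novelty 3 was left out. In the inducible line Rec8 stood at 2.80 ± 0.904 CPM in controls and 2.52 ± 0.477 CPM in ifKO. The gene ends 4 nt from Ipo4, a nuclear import receptor on the other strand (104 CPM in untreated wild type and 98.7 CPM in untreated KO). Whether strand was used in counting is not stated in the sources at hand.

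Smc1b, the meiotic cohesin ATPase, had 20 counts in wild type at rest against 37 in the deeper KO libraries, and 13 against 16 after novelty. Its rate in KO was 1.17 times that of wild type at rest (95% exact counting interval 0.66 to 2.12) and 1.68 times after novelty (0.758 to 3.8). Per library it ran from 0.0474 to 0.42 CPM in wild type and 0.18 to 0.492 CPM in KO. Hormad2, which marks unpaired axes, ran from 0.042 to 0.426 CPM in wild type and 0.1 to 0.323 CPM in KO. For both genes KO and wild type overlapped. Its relative Hormad1 was silent, with 5 counts in all, 3 of them in ifKO library 3, and 22.9% of the 50-base stretches of its transcripts also occur in other genes, mainly Gm15529.

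In the synaptonemal complex, the picture differed from protein to protein. SYCP1, the filament that spans between homologues, had no count in any library, although its partners were read. For Syce1, a protein of the central element (chromosome 7, 140777229 to 140787852), untreated wild type gave 6, 10 and 11 counts and untreated KO 61, 27 and 16, or 0.370, 0.445 and 0.462 against 1.33, 1.25 and 0.541 CPM. All KO libraries lay above all wild-type ones at rest (1.28 ± 0.46, adjusted p = 0.376). After novelty the wild-type levels were 0.872, 0.291 and 0.474 CPM and those of KO 1.62, 0.737 and 1.05 CPM (1.09 ± 0.44, adjusted p = 0.424), which overlap at wild-type library 1. Over both treatments the log2 fold change was 1.18 ± 0.32 with an adjusted p of 0.0732, which became 0.003 without the low-count filter and 0.0391 in DESeq2. Summed counts were 2.24 times those of wild type per M counts (95% exact counting interval 1.69 to 3.01).

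Sycp2, a large protein of the lateral element (chromosome 2, 178345293 to 178407685), was read better, with 2.65, 2.27 and 2.73 CPM at rest without the mutation against 3.73, 3.42 and 3.11 CPM in KO. Novelty libraries gave 1.09, 3.23 and 2.46 CPM against 3.69, 5.22 and 3.31 CPM. The KO libraries lay above the wild-type libraries in either treatment, by 0.43 ± 0.29 at rest (adjusted p = 0.768) and 0.83 ± 0.29 after novelty (adjusted p = 0.314). The lowest and the highest of these values come from wild-type novelty 1 and KO novelty 2, and without the low-count filter the call after novelty (adjusted p = 0.0375) ended when either was left out. Untreated, 4 of the 12 tested genes (Sycp2, Syce1, Tex15 and Tdrd9) had all KO libraries above all wild-type libraries, as did 11.6% of all tested genes. After novelty 3 did (Sycp2, Spo11 and Tdrd1), against 6.64% of all. Tdrd9 passed the filter through KO alone: 5 KO libraries and 0 wild-type libraries reached its level of 10 counts at median depth, so Tdrd9 could enter the test only as higher in KO, in this count and in those of the unadjusted p. Tex11, an X-linked protein of crossing over and synapsis, stood at rest at 0.246, 0.667 and 0.504 CPM in wild type, against 0.611, 0.370 and 0.642 CPM in KO (0.19 ± 0.40, adjusted p = 0.937). After novelty wild type gave 0.218, 0.646 and 0.426 CPM, against 0.360, 0.492 and 0.351 CPM (-0.14 ± 0.45, adjusted p = 0.983). The genotypes overlapped in either treatment.

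Fkbp6 (ENSMUSG00000040013, chromosome 5, 135291704 to 135350044) had 0, 3 and 1 counts in untreated wild type, against 9, 9 and 9 in KO. With novelty, wild type gave 1, 0 and 1 counts, against 4, 9 and 22. It was the only gene of the list in which each of the 6 KO libraries exceeded each of the 6 wild-type libraries, with 0.18 to 1.1 CPM against 0 to 0.133 CPM. Among all 28595 genes with a count in these libraries 1.23% did so. Its summed rate in KO was 9.38 times that of wild type (95% exact counting interval 4.07 to 26.5). It was too low for the filter of the main test. Without the filter its adjusted p was 0.317 at rest, 0.00036 after novelty and 6.74e-05 over both treatments, and the latter pair stayed under 0.05 whichever library was left out. DESeq2 gave 0.615 at rest, 0.0185 after novelty and 0.00156 over both. Of its neighbours, Fzd9, a Wnt receptor, had 3.70 CPM in untreated wild type and 3.94 CPM in untreated KO, and Trim50, 3.25 kb away, at most 2 counts in any group of this line.

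**Figure D3:**
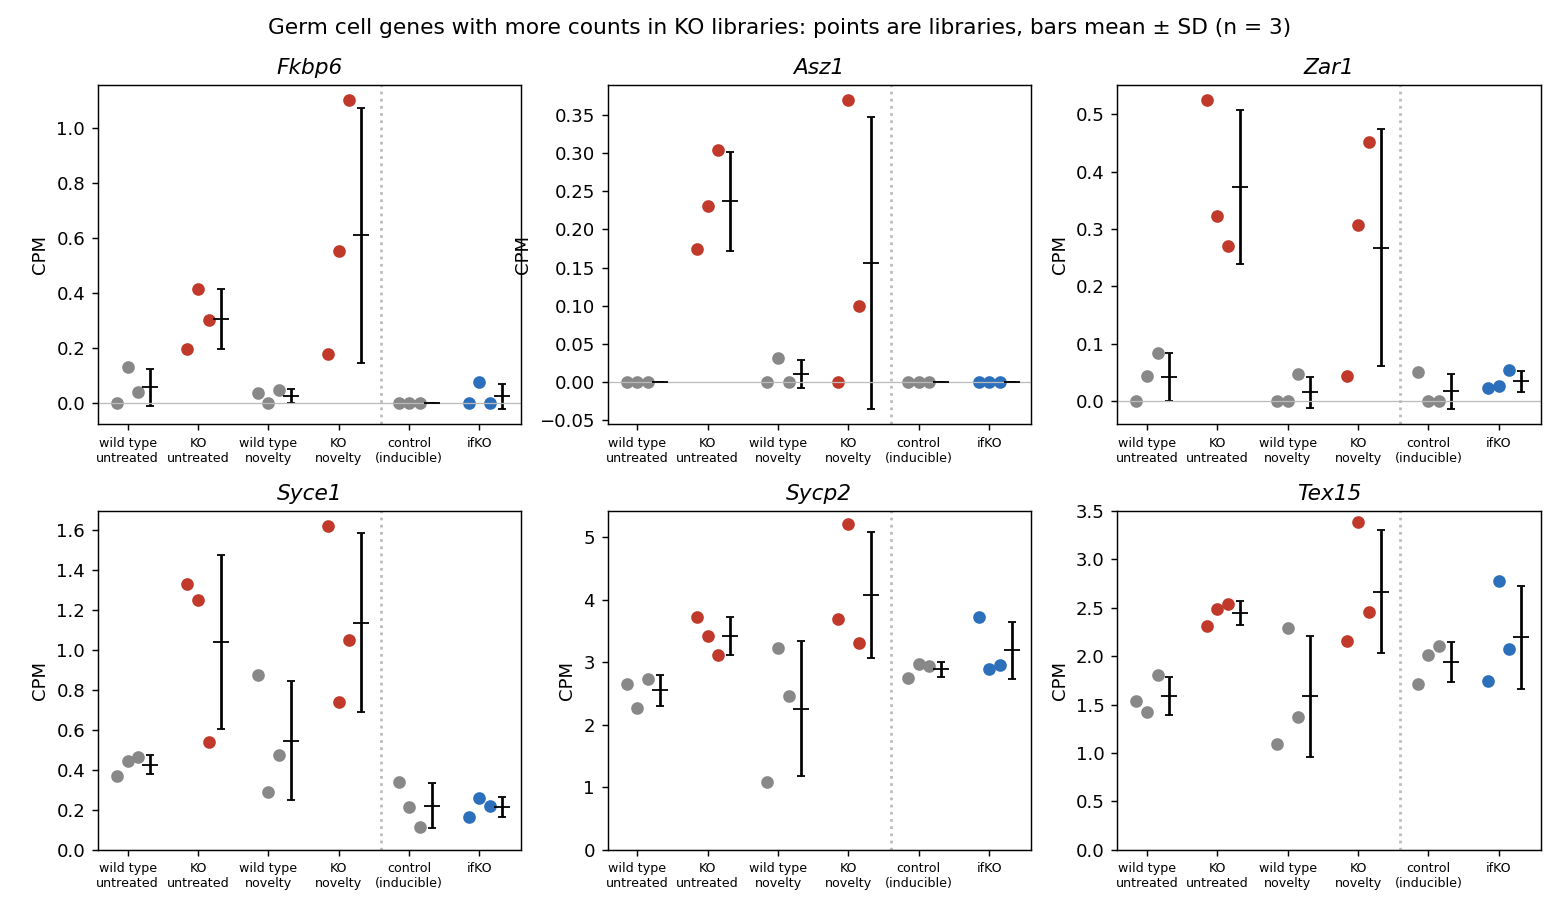
CPM of 6 genes in each of the 18 libraries (points; grey controls, red KO, blue ifKO), with the mean ± SD of 3 libraries beside each group and a dotted line before the inducible line. All KO points of Fkbp6 lie above the wild-type points, Asz1 has no count in untreated wild type or in the inducible line, and the panels of Sycp2 and Tex15 show ifKO and control points that overlap.

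Of the recombination genes, Tex15, a protein of meiotic repair and piRNA-guided silencing (chromosome 8, 33516738 to 33585582), gave 1.54, 1.42 and 1.8 CPM at rest without the mutation against 2.31, 2.49 and 2.54 CPM in KO, without overlap. Novelty values were 1.09, 2.29 and 1.37 CPM against 2.16, 3.38 and 2.46 CPM, where wild-type library 2 lay above KO library 1. The difference was 0.61 ± 0.25 at rest (adjusted p = 0.488), 0.71 ± 0.25 after novelty (adjusted p = 0.333) and 0.66 ± 0.18 over both (adjusted p = 0.0779). Over both treatments the adjusted p was 0.0106 without the low-count filter and 0.0453 in DESeq2. 

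Dmc1, the recombinase of meiosis, stood at rest at 1.42, 1.07 and 1.22 CPM in wild type, against 1.09, 1.06 and 0.777 CPM in KO (-0.32 ± 0.23, adjusted p = 0.8). After novelty wild type gave 0.836, 1.1 and 1.14 CPM, against 1.3, 0.922 and 1.00 CPM (0.09 ± 0.24, adjusted p = 0.981). The genotypes overlapped in either treatment. Meiob, which binds single-stranded DNA in meiosis, was silent, with at most 3 counts in a group.

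Spo11, which makes the DNA breaks of meiosis (chromosome 2, 172977700 to 172993576), had 8, 17 and 10 counts in untreated wild type, against 23, 2 and 8 in KO, or 0.493, 0.756 and 0.420 CPM against 0.502, 0.0924 and 0.270 CPM. These overlap (-0.77 ± 0.48, adjusted p = 0.743). After novelty wild type had 2, 4 and 0 counts and KO 10, 5 and 9 (0.450, 0.307 and 0.451 CPM), without overlap (2.37 ± 0.71, adjusted p = 0.181). The KO levels of both treatments overlap, and those of wild type do not.

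In the piRNA pathway, Asz1 (ENSMUSG00000010796, chromosome 6, 18050964 to 18109061) had 0 counts in each untreated wild-type library, against 8, 5 and 9 in KO. Its summed rate in KO was 4.63 times the floor of 3 counts over the wild-type group. The 95% exact counting interval of its ratio to wild type began at 3.46. In the novelty groups wild type gave 0, 1 and 0 counts, against 0, 6 and 2, so 1 KO library had none. In the 6 libraries of the inducible line Asz1 had 0 counts. Without the low-count filter its adjusted p was 0.0407 untreated, a call that ended when any untreated wild-type library or KO untreated 3 was left out, and 0.00502 over both treatments, which ended only without KO novelty 2. DESeq2 gave 0.179 untreated, no adjusted p after novelty and 0.0203 over both. Its neighbour Wnt2 had 3.82 CPM in untreated wild type and 4.25 CPM in untreated KO, and Cftr 0.441 and 0.618 CPM, both above Asz1 itself.

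Tdrd9, a helicase of the pathway with a Tudor domain, stood at rest at 0.308, 0.400 and 0.336 CPM in wild type, against 0.590, 0.601 and 0.710 CPM in KO, without overlap (0.84 ± 0.32, adjusted p = 0.435). After novelty wild type gave 0.327, 0.420 and 0.190 CPM, against 0.675, 0.369 and 0.602 CPM (0.78 ± 0.34, adjusted p = 0.512), so KO library 2 lay within the wild-type range. Over both treatments the difference was 0.81 ± 0.24 (adjusted p = 0.107), or 0.217 without the filter.

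Tdrd1, a Tudor scaffold, stood at rest at 1.97, 1.91 and 1.51 CPM in wild type, against 1.77, 1.29 and 1.69 CPM in KO, which overlap (-0.15 ± 0.21, adjusted p = 0.903). Novelty libraries of wild type gave 0.654, 1.00 and 1.04 CPM, against 1.48, 1.60 and 1.8 CPM, without overlap (0.86 ± 0.23, adjusted p = 0.115). Of the Tudor genes the most counts fell on Tdrd5, at 3.08, 3.34 and 2.81 CPM at rest without the mutation against 3.14, 3.74 and 3.21 CPM in KO (0.12 ± 0.34, adjusted p = 0.954). After novelty wild type gave 3.09, 3.07 and 2.56 CPM, against 2.11, 6.27 and 1.75 CPM (0.16 ± 0.35, adjusted p = 0.977), so that KO novelty 2 was the highest and the other two KO libraries the lowest. The exons of Tdrd5 overlap 4930518J20Rik on the other strand, so its counts are uncertain in part.

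Of the PIWI proteins, Piwil2 (MILI) stood at rest at 1.66, 1.51 and 0.797 CPM in wild type, against 1.18, 0.924 and 0.845 CPM in KO (-0.37 ± 0.30, adjusted p = 0.818). With novelty, wild type gave 0.799, 1.32 and 0.853 CPM, against 1.53, 0.983 and 1.45 CPM (0.41 ± 0.31, adjusted p = 0.857). The genotypes overlapped in either treatment. Piwil1 (MIWI) had 2, 5 and 5 counts in untreated wild type, against 28, 7 and 5 in KO. Its 2.10-fold higher rate in KO (95% exact counting interval 1.08 to 4.40) rested on KO library 1, and after novelty 24 counts in wild type stood against 17, a ratio of rates of 0.967 (0.488 to 1.88). Mael and Mov10l1, factors of piRNA production, had at most 10 counts in a group. Dnmt3l, a helper of DNA methylation in germ cells, ran from 0.126 to 0.534 CPM in wild type and 0.123 to 0.304 CPM in KO, and its exons overlap Aire on the other strand.

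The germline copies of genes with a somatic partner stayed off or low. Ldhc (lactate dehydrogenase of sperm) had 1 count, Rpl10l (a ribosomal protein of germ cells) 1 and Pdha2 (pyruvate dehydrogenase of sperm) 2 in all 18 libraries. The partners were abundant in untreated wild type, with Ldhb at 114 CPM per kb and Pdha1 at 63.7 CPM per kb. Tuba3a and Tuba3b, tubulins of the testis, had at most 4 counts in a group and share 35.3% and 29.5% of their 50-base stretches with other genes, mainly each other, so single reads may not be assigned to either. Slc25a31, the ADP/ATP carrier of sperm, was the only one of these 6 above 10 counts in any group. It had 7, 16 and 5 counts in untreated wild type, against 10, 1 and 8 in KO. With novelty, wild type gave 3, 3 and 0, against 8, 4 and 4. Its summed rate was 0.428 times that of wild type at rest (95% exact counting interval 0.226 to 0.794) and 3.64 times after novelty (1.35 to 11.4), and the libraries did not overlap after novelty.

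Of the surface and oocyte genes, Tex101 and Dpep3, membrane proteins of sperm cells, had no count in any library. Zar1 (ENSMUSG00000063935, chromosome 5, 72576806 to 72581254) had 0, 1 and 2 counts in untreated wild type, against 24, 7 and 8 in KO, or 0 to 0.0839 CPM against 0.270 to 0.524 CPM. In the novelty groups wild type gave 0, 0 and 1 counts, against 1, 5 and 9, where KO library 1 with 0.045 CPM lay just under wild-type library 3 with 0.0474 CPM. Its summed rate in KO was 12.3 times that of wild type (95% exact counting interval 4.52 to 46.6). Without the low-count filter the adjusted p was 0.0464 untreated, 0.0423 after novelty and 0.000333 over both treatments, the last of which held whichever library was left out. The call at rest ended without wild-type untreated 1 or 2 or KO untreated 1, and the call after novelty without wild-type novelty 1 or 2 or KO novelty 3. DESeq2 gave 0.319 untreated, 0.13 after novelty and 0.00423 over both. Of its 50-base stretches 28.4% also occur in Gm42668 or Gm15847, so its counts are uncertain in part.

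Genes under the filter were also read by size: at least 10 counts in the mutant group and at least 2 times the rate of its control group. In untreated KO 4 of the 10 untested genes with enough counts met it (Asz1, Piwil1, Fkbp6 and Zar1), as did 15.3% of the 2501 untested genes with such counts. After novelty 3 of 8 did (Fkbp6, Zar1 and Slc25a31; 16.9% of 1465), and in ifKO 0 of 4 (10.3% of 2562). A rate of at most 0.5 times that of wild type was seen for 1 of the 10 in untreated KO, Slc25a31 (3.36% of all). The rule takes in only genes with counts in the mutant group, so a gene such as Asz1 (22 counts against 0) enters through KO alone. Genes that fell below 10 counts drop out, as did Slc25a31 in ifKO (7 counts against 27 in controls). Both points tilt these counts to higher rates, over all genes as well, so they are a description only.

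**Figure D4:**
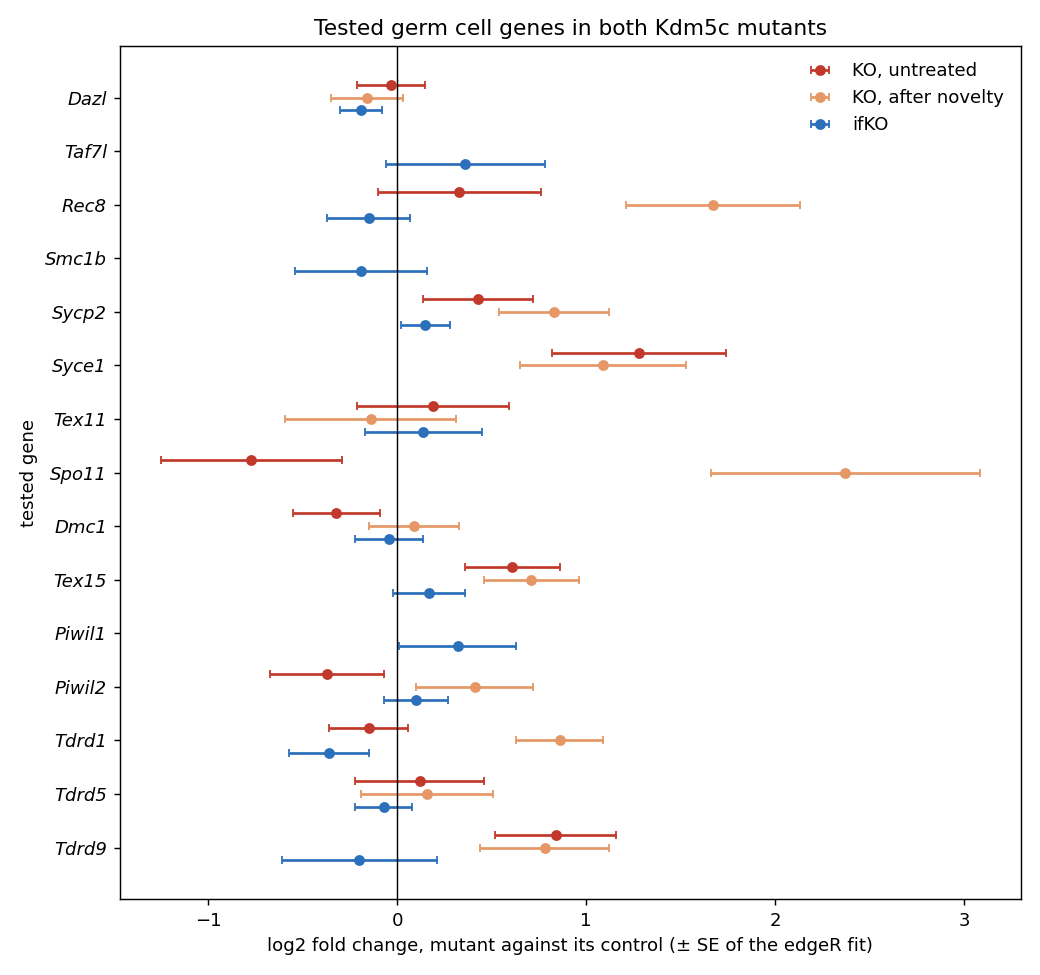
Log2 fold change ± SE of the edgeR fit for each gene that passed the filter, in untreated KO (red), KO after novelty (orange) and ifKO (blue); a missing point means that the gene was not tested there. KO values run from -0.77 to 2.37, and those of ifKO from -0.36 to 0.36.

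In the inducible knockout, none of the 13 tested genes differed from the controls in edgeR (0.645% of all 17367 tested genes passed), none at an unadjusted p under 0.05 (4.45% of all higher and 2.19% lower), and none in DESeq2 (0.664%) or without the low-count filter (1.39%). Log2 fold changes ran from -0.36 to 0.36 with SEs of 0.11 to 0.42, and the median was -0.04, against 0.00 over all tested genes. In all 13 the control and ifKO libraries overlapped, where 6.55% of all tested genes had ifKO wholly above and 5.48% wholly below the controls.

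Of the synaptonemal and recombination genes, Sycp2 stood at 2.75, 2.97 and 2.94 CPM in controls, against 3.72, 2.89 and 2.96 CPM in ifKO (0.15 ± 0.13, adjusted p = 0.908). Tex11 had 0.440, 0.429 and 0.339 CPM against 0.465, 0.286 and 0.580 CPM (0.14 ± 0.31, adjusted p = 0.972). Tex15 had 1.71, 2.01 and 2.10 CPM against 1.74, 2.78 and 2.07 CPM (0.17 ± 0.19, adjusted p = 0.927). Each of these had an ifKO library above all controls and another within or below their range. Dmc1 had 1.32, 1.12 and 1.15 CPM against 1.05, 1.22 and 1.24 CPM (-0.04 ± 0.18, adjusted p = 0.985).

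Of the fate and cohesin genes, Dazl stood at 6.19, 5.22 and 5.95 CPM in controls, against 4.51, 5.46 and 5.25 CPM (-0.19 ± 0.11, adjusted p = 0.819). Taf7l had 0.259, 0.295 and 0.113 CPM against 0.209, 0.390 and 0.249 CPM (0.36 ± 0.42, adjusted p = 0.935). These genes too overlapped between the groups. Rec8 had 3.83, 2.38 and 2.17 CPM against 1.97, 2.78 and 2.82 CPM (-0.15 ± 0.22, adjusted p = 0.953), with its highest value in control 1. Smc1b had 0.207, 0.295 and 0.339 CPM against 0.186, 0.260 and 0.304 CPM (-0.19 ± 0.35, adjusted p = 0.963).

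Of the piRNA genes, Piwil1 stood at 0.259, 0.268 and 0.362 CPM in controls, against 0.348, 0.312 and 0.470 CPM (0.32 ± 0.31, adjusted p = 0.92). Piwil2 had 1.74, 1.45 and 1.29 CPM against 1.70, 1.61 and 1.46 CPM (0.10 ± 0.17, adjusted p = 0.961). Tdrd1 had 1.09, 1.74 and 1.36 CPM against 0.975, 1.12 and 1.16 CPM (-0.36 ± 0.21, adjusted p = 0.82), a scaffold that was lowest in an ifKO library and highest in a control. Tdrd5 had 5.44, 5.87 and 7.06 CPM against 4.53, 6.68 and 6.35 CPM (-0.07 ± 0.15, adjusted p = 0.969). Tdrd9 had 0.259, 0.295 and 0.294 CPM against 0.232, 0.390 and 0.110 CPM (-0.20 ± 0.41, adjusted p = 0.97). The helicase thus had its highest and its lowest value in ifKO.

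Among untested genes, Fkbp6 had 0, 0 and 0 counts in the controls and 0, 3 and 0 in ifKO, Zar1 2, 0 and 0 against 1, 1 and 2, and Syce1 13, 8 and 5 against 7, 10 and 8. With groups of 118 and 120 M counts, deeper than those of the KO line, Fkbp6 thus reached only 0.026 ± 0.0451 CPM in ifKO, against 0.306 ± 0.11 CPM in untreated KO. The lines differ in strain, read type and flowcell, so levels cannot be compared between them beyond this description. Slc25a31 had 1, 12 and 14 counts in controls and 2, 2 and 3 in ifKO, which overlap at control library 1, and its summed rate in ifKO was 0.263 times that of controls (95% exact counting interval 0.0968 to 0.62).

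The difference between the effects of both mutants was tested in itself, as KO minus wild type (untreated) less ifKO minus control, in a fit of all 18 libraries. None of the 17 genes tested passed (0.114% of all 17508 did), and none had an unadjusted p under 0.05 (2.1% of all higher and 1.91% lower), nor did any pass in DESeq2 (0.213%) or without the low-count filter (0.269%). The estimates closest to the threshold were Tdrd9, with 1.04 ± 0.52, and Syce1, with 1.31 ± 0.72, both with an adjusted p of 1. For Fkbp6 the fitted value was -0.76 ± 1.00, with a control group that has no count. Fkbp6 passed the filter of this fit through KO libraries alone. The alternatives gave -1.29 to 2.09, and the counts were 27 against 4 in untreated KO and 3 against 0 in ifKO. The sign of this value is therefore not settled. For no gene of the list did a difference between the effects of both mutants pass the test.

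After 1 h of novelty, 0 of the 12 tested genes passed in wild type (0.384% of all tested genes) and 0 in KO (0.11%). In wild type 2 had an unadjusted p under 0.05, both lower (5.33% of all were lower at that level and 5.63% higher), and both passed as lower without the low-count filter (0.273% of all), while DESeq2 called none of the 9 listed genes to which it gave an adjusted p (1.4% of all), Tdrd1 with 0.0631 among them and Spo11 not. Spo11 went from 0.493, 0.756 and 0.420 CPM untreated to 0.0727, 0.129 and 0 CPM after novelty, without overlap (-2.82 ± 0.66, adjusted p = 0.0962, and 0.00693 without the filter). Tdrd1, at 1.97, 1.91 and 1.51 CPM, had 0.654, 1.00 and 1.04 CPM, also without overlap (-0.99 ± 0.23, adjusted p = 0.0874, and 0.044 without the filter, which ended when wild-type untreated 1 or 2 or wild-type novelty 1 was left out). Groups without overlap in this direction made up 7.7% of all tested genes. Spo11 reached the filter's level in 2 wild-type libraries and 1 KO library, all of them untreated. With the filter, Spo11 could thus enter these novelty counts in wild type only as lower. It entered the interaction below through the same untreated libraries. Slc25a31, under the filter, went from 0.431, 0.711 and 0.210 CPM untreated to 0.109, 0.0968 and 0 CPM, also without overlap, and without the filter its log2 fold change was -2.51 ± 0.68 (adjusted p = 0.0538).

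In KO, Spo11 (0.32 ± 0.52) and Tdrd1 (0.02 ± 0.21) had libraries that overlapped between both treatments, and no tested gene of the list had an unadjusted p under 0.05 (3.71% of all higher and 3.01% lower), with 0 of the 11 that had an adjusted p passing in DESeq2 (0.429%) or without the filter (0.353%). The test of the difference itself, the interaction of genotype and novelty, gave 3.14 ± 0.86 for Spo11 and 1.01 ± 0.31 for Tdrd1, both at an unadjusted p under 0.05 (2.04% of all were higher and 1.4% lower at that level) and an adjusted p of 1. For Slc25a31 the interaction without the filter was 2.99 ± 0.93 (adjusted p = 0.577). No gene of the 16392 passed the interaction test in edgeR with the filter (0% of all) or in DESeq2 (0% of all), and 8 (0.028% of all) passed without the filter, none of them listed here. The comparisons share libraries: untreated and novelty wild type enter both the genotype and the novelty contrasts, and so the higher KO values of Spo11 and Tdrd1 after novelty and their lower wild-type values share the novelty libraries of wild type.

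**Figure D5:**
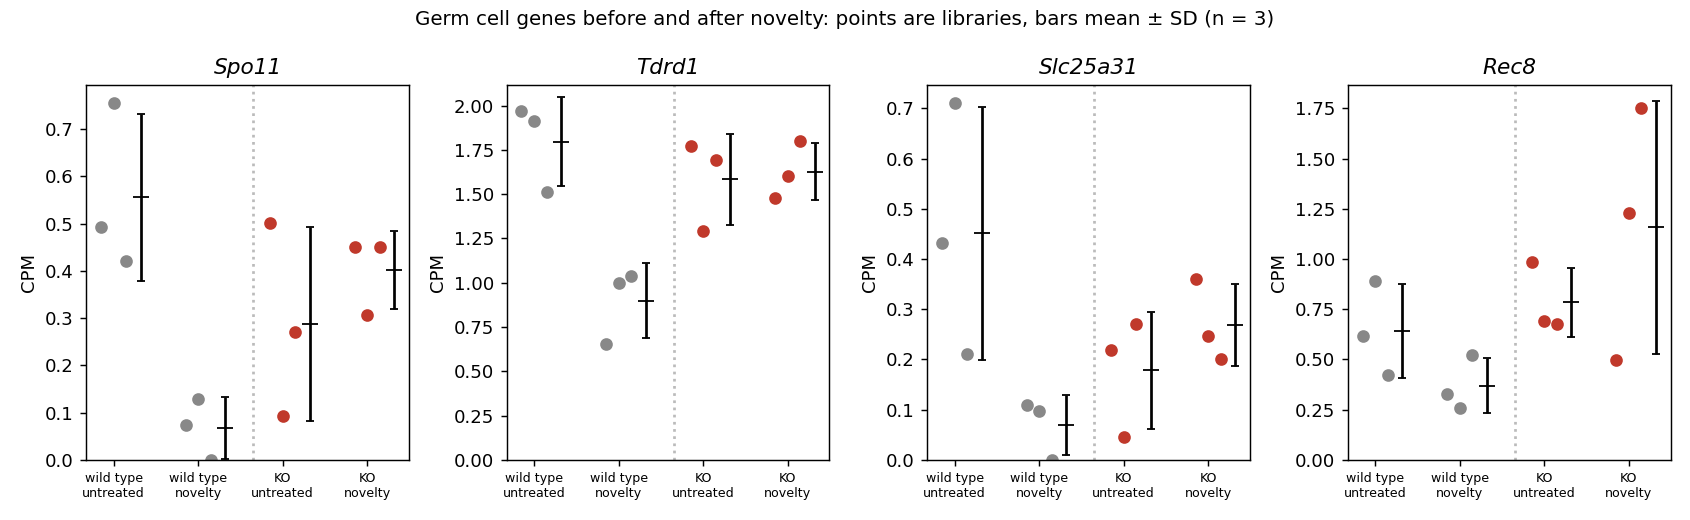
CPM of Spo11, Tdrd1, Slc25a31 and Rec8 in each library (points; grey wild type, red KO) untreated and after novelty, with the mean ± SD of 3 libraries beside each group. Wild-type points of Spo11 and Tdrd1 are lower after novelty without overlap, and the KO points of these genes overlap between treatments.

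Other genes of the same pathways, chosen with earlier results of these data known, give the setting. Of 13 tested further piRNA pathway genes, 2 rose in untreated KO (Rnf17 and Ddx4) and 3 after novelty (those and Pnldc1), with none lower and a median of 0.06 and 0.32 against 0.00 over all genes, of which 1.24% and 1.34% passed in either direction. Rnf17, a Tudor protein of germ cells, rose by 2.49 ± 0.33 in untreated KO (adjusted p = 0.00106), from 0.664 to 3.97 CPM, and Ddx4 (Vasa), the germ cell helicase, by 0.97 ± 0.20 (adjusted p = 0.0301), from 4.70 to 9.13 CPM. Rnf17 was also the gene of these lists that passed the test of KO against ifKO effects (2.56 ± 0.41, adjusted p = 0.00718). Of 20 tested further meiotic chromosome genes 3 rose in untreated KO (Hsf2bp, Sycp3 and 4930447C04Rik), 3 after novelty (Hsf2bp, Sycp3 and Rec114) and 6 for the mean of both, with none lower, where 1.24%, 1.34% and 2.81% of all tested genes passed. Their medians were 0.13, 0.45 and 0.29, against 0.00 over all genes. Sycp3, the lateral element partner of SYCP2, rose by 1.29 ± 0.24 in untreated KO (adjusted p = 0.0124), from 1.23 to 3.01 CPM, and Hsf2bp, a partner of the BRCA2 repair protein, by 2.40 ± 0.36 (adjusted p = 0.00277), from 0.36 to 1.95 CPM. Of 5 tested germ cell fate regulators, 1 rose in either treatment, the transcription factor Tcfl5, with medians of -0.10 and -0.11. None of these lists had a gene that passed in ifKO. How many genes of these lists passed the filter through KO alone was not counted, so their counts and medians may be tilted to higher. The untreated wild-type mean of Hsf2bp lay under the filter's level of 0.453 CPM.

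Of 6 tested spermatid genes, 3 tested oocyte genes and 5 tested genes of the testis' somatic cells, 0 passed in KO or ifKO, and the protamine genes Prm1 and Prm2 had 0 counts and Tnp1 1 count in all 18 libraries. The genes of germline repressors (17 tested, among them E2f6, Mga, Max and Dnmt1) and of the somatic partners (16 tested) also gave 0 in these comparisons. Markers of other brain cells moved in part with genotype. For 14 ependymal markers the summed level was 87.7 to 98.6 CPM in the 6 wild-type libraries and 101 to 107 CPM in the 6 KO libraries. None of the 14 passed the test. The defining marker Foxj1 stood at rest at 3.64, 3.69 and 3.15 CPM in wild type, against 4.76, 4.11 and 4.46 CPM in KO. These do not overlap, as for 11.6% of all tested genes. After novelty wild type gave 4.83, 4.36 and 4.64 CPM, against 4.77, 4.98 and 5.97 CPM, which overlap. The summed level of 8 astrocyte markers was 5310 to 6050 CPM in wild type and 6150 to 6630 CPM in KO, with Gfap alone passing over both treatments. Of 9 microglia markers Siglech rose (0.60 ± 0.10 in untreated KO, adjusted p = 0.00736), and over both treatments Mbp of 9 oligodendrocyte and Hbb-bt of 5 tested blood markers fell, while 0 of 12 neuron, 8 vascular and 10 choroid plexus markers passed. Their part in the levels of the listed genes was not tested. In KO untreated 2, the library with choroid plexus markers, Fkbp6 stood at 0.416 CPM, above the other untreated KO libraries (0.197 and 0.304 CPM), and Asz1 (0.231 CPM) and Zar1 (0.323 CPM) lay between them.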

How the data were processed

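RNA sequencing of 18 hippocampal libraries, each a pool of 3 mice, is described by 24 sample records, of which 6 name the other read of a pair. The files hold raw counts per Ensembl gene as the authors deposited them, with no normalization. The submitters' processing notes name the aligner STAR 2.5.0c, the counter HTSeq 0.6.1, SAMtools 1.3, DESeq2 and build GRCm38 (mm10). They give neither a strand setting nor an annotation release. Libraries were stranded per the labels' protocols. The summary lines of the files were left out: reads in no feature were 14.7 to 17.2% and ambiguous reads 0.765 to 1.06% of uniquely aligned reads. Reads aligned at several places, which were not counted, made up 21.9 to 23.6% of all in the single-read and 11.8 to 12.7% in the paired libraries, and genes with near-identical copies can lose counts to them. Depth was 16 to 45.6 M counts in genes per library, and intervals and floors (3 counts) cover counting error only.

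Symbols and positions came from GENCODE M21 for 46574 of 47069 IDs, and promoters from RefSeq (GRCm38.p6), matched by symbol. CPM per library and their means use TMM factors. Floors, ratios and neighbours use summed counts without them. Counts were tested in R 4.3.3 with edgeR 4.0.16 (quasi-likelihood, TMM, filterByExpr with a minimum count of 10 and total of 15, prior count 0.125, Benjamini-Hochberg over all tested genes, threshold 0.05). One fit held KO and wild type in both treatments (12 libraries), another the inducible line (6), and a last one gave the difference between both mutants over all 18 libraries. Errors of fold changes are SE, and those of levels SD over 3 libraries. Silent means at most 3 counts in each group. All 35 genes are accounted for: those that passed a filter, or had at least 10 counts in a mutant group and a rate at least 2 or at most 0.5 times that of its control, are given in full. Alternatives were DESeq2 1.42.0, RLE factors, no filter, at least 1 CPM in 3 libraries as a filter, a block for the replicate number, fits of only the groups compared, each library left out, and wild-type novelty 1 with KO novelty 2 left out. Fits without the filter combined with other changes, and the size rule with libraries left out, were added after seeing the data. The members, lists and tests were chosen with earlier results of these data known. The main fit was tried on simulated counts of genes that passed the filter, with changes set in genes of at least 0.5 CPM. This was done for untreated KO, the mean of both treatments, ifKO and the difference between both mutants. KO after novelty, the novelty comparisons and the interaction were not simulated, nor were changes in tested genes of lower level such as Spo11. No result here rests on the outcome of that trial. Fits without the filter and DESeq2 were not simulated, so the calls they gave for genes of low count are not covered. Of other lists, up to 6 genes with an adjusted p under 0.05 could be named, by smallest adjusted p.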

Additional observations from a re-analysis of the deposited data

Results flagged for a closer look

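Taf7l was flagged because its libraries separate in opposite directions between treatments. Untreated, all 3 KO libraries lay below all 3 wild-type libraries, and after novelty all 3 lay above them. In the same libraries, wild-type levels were lower after novelty and KO levels higher, each without overlap. The separations are narrow: after novelty the nearest libraries stood at 0.401 CPM (KO) and 0.400 CPM (wild type), and wild type untreated 2 and novelty 1 are level at the digits printed, 0.400 CPM, from 9 and 11 counts. Taf7l did not pass the low-count filter, and without it the difference of both effects was 0.92 on the log2 scale, which did not pass the test (edgeR adjusted p = 1).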

How the results depend on the processing

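The count of genes called stayed at 0 for ifKO, novelty in KO, the interaction, and KO against ifKO effects in every alternative run on the main fit. In untreated KO it was 2 without the low-count filter and 0 otherwise. In KO after novelty it was 4 without the filter, 1 with DESeq2 (Fkbp6), 1 without wild-type novelty 1 and KO novelty 2 (Syce1), and 0 to 2 with each library left out (Rec8 and Fkbp6 without KO novelty 1). For the mean of both treatments it was 7 without the filter, 5 with DESeq2 (Tex15, Asz1, Syce1, Fkbp6 and Zar1), 1 without wild-type novelty 1 and KO novelty 2 (Syce1), and 0 to 3 with each library left out: 0 without KO novelty 3, 3 without wild-type novelty 2 (Tex15, Fkbp6 and Sycp2), and Fkbp6 or Syce1 or both, with Rec8 once, otherwise. Novelty in wild type gave 2 without the filter. The filter asks for as many libraries at its level as the smallest group holds, so it is looser when a library is left out. Fkbp6, with 2 KO and 0 wild-type libraries at that level in the full data, entered such fits through KO alone. There it could be called only as higher, so its calls do not bear on how stable the main test is.

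Without the filter, leaving out each library gave 0 to 2 in untreated KO, 2 to 5 after novelty, 6 to 7 for the mean, 0 to 1 in ifKO (Slc25a31 without control library 1) and 1 to 3 for novelty in wild type. RLE factors made the 2 of untreated KO 0, and leaving out wild-type novelty 1 and KO novelty 2 made the 7 of the mean 4. By size, 3 to 5 genes in untreated KO, 2 to 4 after novelty and 0 in ifKO met the rule with each library left out.

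Same-numbered libraries correlated from -0.19 to 0.30 in their deviations from the group means, so the numbers were not taken as pairs. With the replicate block, 1 gene was called for the mean of both treatments (Tex15; 2.54% of all tested genes) in place of 0, none in untreated KO without the filter in place of 2, and other counts stayed within 1.5 times. Depth limits the genes below about 10 counts a group, where 1 library decides a rate.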
